A study of Homo sapiens with 6 samples.

Results

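The genes described here are 37 genes that act in G2 phase and mitosis, taken by symbol out of the 24154 genes of a deposited RNA-seq table, and all 37 were found there and tested. They are the cyclins and kinase that start mitosis, the kinases that run it, the spindle checkpoint, the machinery of mitotic exit, centromere and spindle proteins, and the genes of cytokinesis. Cells labelled HCT116, a human colorectal carcinoma line, had been treated for 48 h with a negative control siRNA (NC, n = 3 libraries) or with siCPT2 (here the CPT2 knockdown, n = 3 libraries). CPT2 encodes the mitochondrial enzyme that takes long-chain acyl groups off carnitine for fatty acid oxidation, and the comparison asks how expression differs when it is targeted. The labels give no other treatment, name a single siRNA label and a single cell line, and leave unsaid if each replicate was a culture of its own, so p-values rest on a spread between libraries that may be technical alone. Values below are CPM, a gene's counts scaled to a common library size with TMM factors, log2 fold changes are knockdown over NC, and values listed by library run from replicate 1 to replicate 3.

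Mitosis begins when cyclin B bound to CDK1 is switched on by the CDC25 phosphatases, and it ends when the anaphase-promoting complex with CDC20 marks cyclin B and securin for destruction. Most of the genes involved are transcribed late in the cell cycle: the DREAM complex holds them down in G1, and B-MYB with the MuvB core and later FOXM1 switch them on. In bulk RNA fewer cells in G2 or mitosis cannot be told apart from less of a transcript per cell.

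The libraries held 28353790 to 29449380 counts, and the members took 0.429% to 0.485% of them in NC and 0.302%, 0.44% and 0.401% in the 3 knockdown libraries in turn. The targeted gene, CPT2, was at 23.6, 28.5 and 29.1 CPM in NC and 19.4, 21.3 and 19 CPM in the knockdown, with a log2 fold change of -0.44 (SE 0.17, edgeR adjusted p = 0.338). Its groups did not overlap, all 3 knockdown libraries lying below NC, as was so for 12.2% of all genes. In the authors' deposited table CPT2 has -0.44 with an unadjusted p of 0.0118 by DESeq2 and is called normal. With the offsets for GC content and length described below, its log2 fold change by edgeR was 0.017. Leaving out knockdown replicate 1 gave -0.44, and -0.26 with the offsets, under which CPT2 differed from the NC mean by 0.48, -0.30 and -0.22 in knockdown replicates 1 to 3. CPT2 knockdown replicate 1 stood apart on the first principal component (76.6 against -44.6 to 16 in the others), and the members' values without it are given group by group. The labelled cell type was checked on 10 markers of colorectal epithelium. Keratins KRT8 and KRT18 were high, at 995 and 690.0 CPM in NC. The claudin genes CLDN7 and CLDN4 were at 43.8 and 20.8 CPM in NC, and KRT19 at 0.194 to 1.34 CPM over the 6 libraries. The adhesion molecule EPCAM was at 2.68 to 4.31 CPM over the 6 libraries and E-cadherin (CDH1) at 1.03 to 2.9 CPM. The intestinal factor CDX2 had no count in any library, and KRT20 and VIL1 stayed under 1 CPM in all 6, so that 3 of the 10 were under 1 CPM throughout. The 10 summed to 1609.6 to 1873 CPM in NC and 1778 to 2757 CPM in the knockdown. Of 15 markers of other cell types, 8 were under 1 CPM in all 6 libraries. CDH5, a cadherin of endothelium, had 79.2 CPM, the collagen gene COL1A1 67 CPM and CD68, listed for blood cells, 20.8 CPM in NC. The summed level of these 15 was 171 to 175 CPM in NC and 179 to 216 CPM in the knockdown, and their part in the results below was not tested. Some epithelial markers were thus expressed and others at or near 0, and HCT116 is used here as the submitters' label.

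None of the 37 mitosis genes passed the test between CPT2 knockdown and NC. Across the list, 22 members were below and 15 above 0 in log2 fold change. Their median was -0.059, against a median of 0.0083 over the 15302 genes tested. Scaled by library size alone, which moves the median of all genes to -0.13, 27 were negative and 10 positive. Offsets for GC content and length left 18 negative and 19 positive. TOP2A, ECT2, ANLN and TTK had the most negative values, from -0.66 to -0.58, and AURKB, PLK1 and FOXM1 the most positive, from 0.31 to 0.40. By edgeR's quasi-likelihood test with Benjamini-Hochberg adjustment, 0 of 37 were called at 0.05, where 0.0131% of all genes were, and 1 of 37 (PLK1) had an unadjusted p under 0.05, where 14.5% of all genes did. DESeq2 and limma-voom also called 0 members, with 3 and 2 at an unadjusted p under 0.05, where 13.8% and 15.2% of genes were. DESeq2 called 0.122% and limma-voom 0.00654% of all genes. The 3 knockdown libraries all lay below the 3 NC libraries for 4 members (CDK1, BUB1, ECT2 and TOP2A), a share to be read against 12.2% of all genes, and all above for 2 members (PLK1 and UBE2C), against 12.2% of all genes. In the authors' deposited table, 0 of the 37 members carry an up or down call, where 4.15% of the genes tested there do, and 2 (PLK1 and TOP2A) have an unadjusted p under 0.05, where 20.2% do. Per the file headers, the authors' call rests on an unadjusted p, at a threshold below 0.05, and on a fold change, unlike the adjusted calls above.

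The values farthest below NC lay in knockdown replicate 1. CPT2 knockdown replicate 1 was the lowest of the 6 libraries for 22 of the 37 members and the highest for 5. It lay below all 3 NC libraries for 22 members, where it did so for 42.7% of all genes, and above them for 9 (42% of all genes). Knockdown replicate 3 was below all 3 NC libraries for 18 members (35.2% of all genes) and above them for 13 (37.4%), and replicate 2 was below for 5 (26.7%) and above for 7 (27%). Below the NC mean lay 27, 16 and 20 members in knockdown replicates 1, 2 and 3, beside 7581, 7576 and 7387 of all 15302 genes. NC replicate 2 was the highest for 18 and the lowest for 9. Against the NC mean, the median member differed by -0.35 in knockdown replicate 1, 0.0073 in replicate 2 and -0.066 in replicate 3 on the log2 scale. Single members spread over -1.65 to 0.65 in replicate 1. The same spread was -0.18 to 0.34 for replicate 2 and -0.56 to 0.53 for replicate 3. In 15 members the NC mean was over 1.5-fold the level of knockdown replicate 1, and the share of all genes was not computed. Without that replicate the fitted median of the members turned positive, to 0.029, with 16 members lower and 21 higher. Without knockdown replicate 2 it was -0.22, and 16 members then had an unadjusted p under 0.05 by edgeR, as did 35.9% of all genes.

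**Figure D1:**
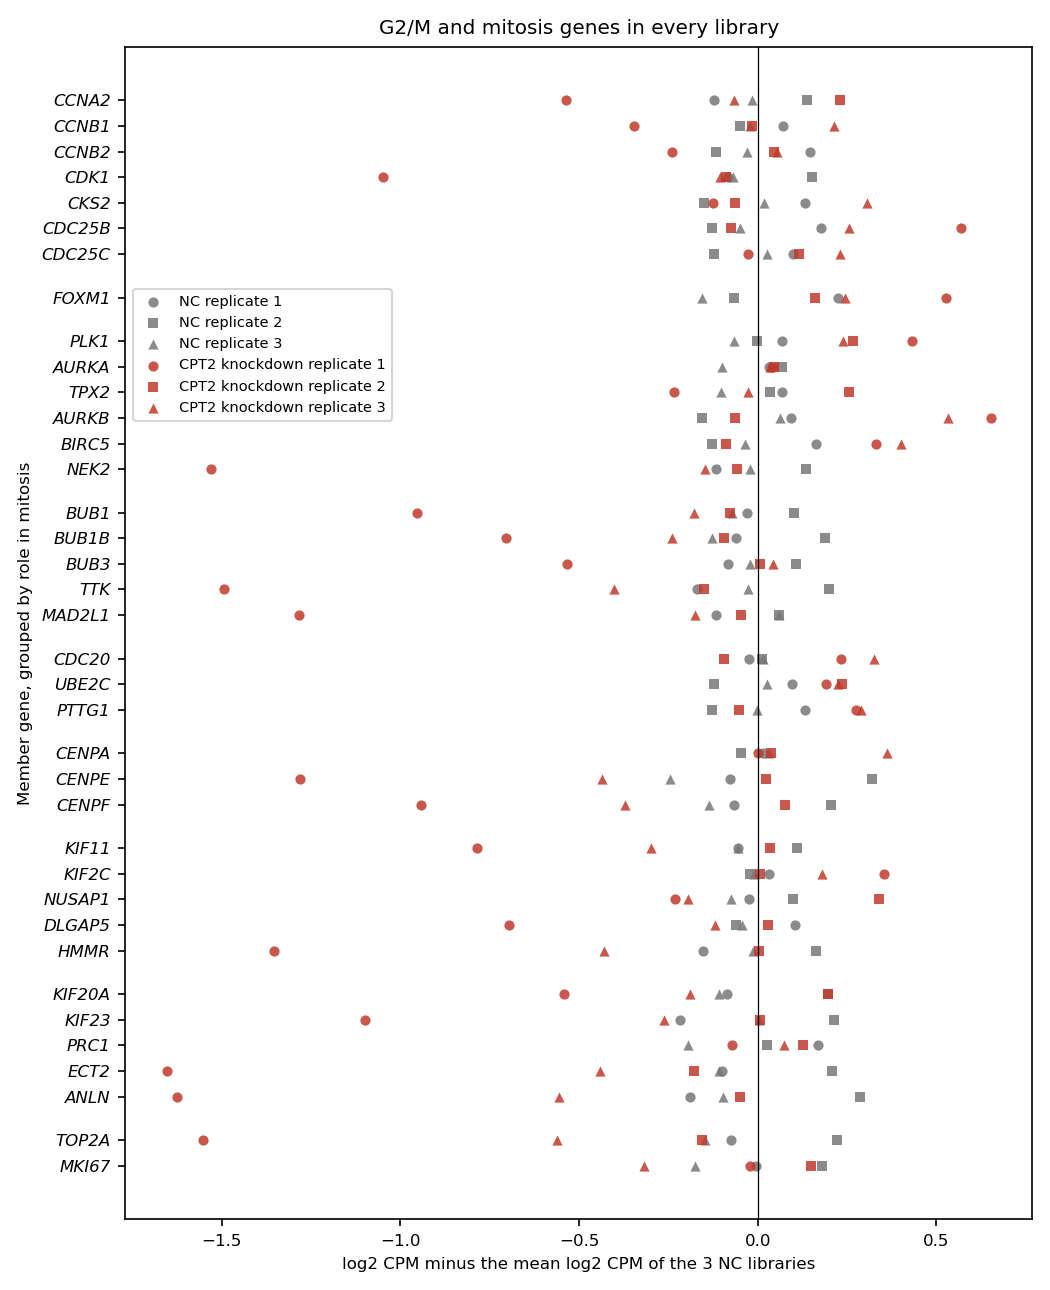
Each row is a member, grouped by role, and each point is a library: the x axis gives its log2 CPM minus the mean log2 CPM of the 3 NC libraries (grey NC, red CPT2 knockdown; circle, square and triangle for replicates 1, 2 and 3). CPT2 knockdown replicate 1 is the lowest library for 22 of the 37 members, with ECT2, ANLN and TOP2A farthest to the left, whereas replicates 2 and 3 lie nearer to the grey points.

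The promoters are shown because late cell-cycle genes share short sequence elements there. The cell cycle genes homology region (CHR) is the element through which DREAM and B-MYB-MuvB contact these genes, and CCAAT boxes bind NF-Y. RefSeq promoter sequences (GRCh38.p14, 250 bases before to 50 after each start) were at hand for 30 of the 37 members, as 40 promoters. The CHR letters searched were TTTGAA and TTCGAA, and the CCAAT box was searched as CCAAT, all on both strands, and the motifs were allowed to overlap. CHR letters occurred in 25 of the 40 member promoters (62.5%) and in 16.4% of all 35116 promoters. CCAAT occurred in 31 (77.5%) and in 34.6% of all. By gene, 22 members had CHR letters, 26 had CCAAT and 20 had both. These counts describe letters, not bound sites, and other spellings of the CHR were not searched. The 160 bases upstream of the RefSeq start follow for 3 members that had some of the lowest values in knockdown replicate 1 (TOP2A, ANLN, HMMR) and 3 that did not (PLK1, CDC20, CCNB2), each read 5′ to 3′ on the gene's strand, with CHR and CCAAT letters of either strand in capitals. GENCODE 29 has transcripts of all 6 genes that begin inside or upstream of these stretches.
TOP2A (chr17:40417897-40418056, minus strand): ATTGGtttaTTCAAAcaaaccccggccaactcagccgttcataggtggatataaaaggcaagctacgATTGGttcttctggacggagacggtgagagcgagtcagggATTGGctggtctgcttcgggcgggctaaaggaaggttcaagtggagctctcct
ANLN (chr7:36389702-36389861, plus strand): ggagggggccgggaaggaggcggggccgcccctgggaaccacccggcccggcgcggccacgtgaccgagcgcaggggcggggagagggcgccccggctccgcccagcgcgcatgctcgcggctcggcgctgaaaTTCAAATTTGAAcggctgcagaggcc
HMMR (chr5:163460472-163460631, plus strand): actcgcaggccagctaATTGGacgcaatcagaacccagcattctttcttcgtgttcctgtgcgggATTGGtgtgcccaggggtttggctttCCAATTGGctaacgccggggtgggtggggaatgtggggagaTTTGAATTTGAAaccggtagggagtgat
PLK1 (chr16:23678729-23678888, plus strand): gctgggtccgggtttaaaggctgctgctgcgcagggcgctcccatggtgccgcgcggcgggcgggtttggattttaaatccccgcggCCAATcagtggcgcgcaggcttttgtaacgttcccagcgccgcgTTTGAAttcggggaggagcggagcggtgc
CDC20 (chr1:43358821-43358980, plus strand): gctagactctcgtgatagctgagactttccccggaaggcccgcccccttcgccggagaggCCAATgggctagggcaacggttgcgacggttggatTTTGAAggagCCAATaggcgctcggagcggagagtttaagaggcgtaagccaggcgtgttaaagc
CCNB2 (chr15:59104986-59105145, plus strand): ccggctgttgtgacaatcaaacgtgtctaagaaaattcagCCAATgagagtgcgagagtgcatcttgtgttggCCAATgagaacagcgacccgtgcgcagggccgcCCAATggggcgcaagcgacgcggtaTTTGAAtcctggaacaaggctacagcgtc
Both sets hold CHR letters, in HMMR as 2 adjacent copies and in ANLN as 2 adjacent copies in opposite orientation. Among the 22 members with CHR letters the log2 fold change had a median of -0.27, and the 8 members with a promoter entry and no CHR letters one of -0.063. Their median transcript GC contents differed as well, at 42.4% and 45.8%, and with the offsets for GC content and length described below the medians were -0.029 and 0.018.

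Cyclin B, CDK1 and their activators gave no common shift, with 3 of 7 positive, 4 negative and none called (1 positive and 6 negative by library size alone). CCNB1, the main mitotic cyclin, was at 134, 124 and 126 CPM in the NC libraries and 101, 127 and 148 CPM in the knockdown libraries. Knockdown replicate 1 was the lowest and replicate 3 the highest of all 6, so the groups overlapped, which gave a log2 fold change of -0.032 (SE 0.17, edgeR adjusted p = 0.918). CCNB2, its partner with an overlapping role, had 50.9, 42.5 and 45.1 CPM in NC and 38.9, 47.5 and 47.8 CPM in the knockdown, and its log2 fold change was -0.044 (SE 0.16). CCNA2, the cyclin of S and G2 phase, had 55.5, 66.4 and 59.7 CPM and 41.6, 70.7 and 57.6 CPM, so that the knockdown held both the lowest and the highest library (log2 fold change -0.095, SE 0.21). CDK1 (ENSG00000170312, chromosome 10 at 60778331 to 60794852 on the plus strand, GRCh38) is the kinase that cyclin B activates. It was at 108, 128 and 109.6 CPM in NC and 55.6, 108 and 107 CPM in the knockdown. The groups did not overlap, but knockdown replicates 2 and 3 lay just under the lowest NC library and replicate 1 far lower, the NC mean being 2.07-fold its level. Its log2 fold change came to -0.35 (SE 0.24, edgeR adjusted p = 0.422), with a 95% interval of -0.91 to 0.20, and -0.11 without knockdown replicate 1. CKS2, a small CDK1-binding subunit, had a log2 fold change of 0.046 (SE 0.17). The phosphatase genes CDC25B and CDC25C, whose products activate CDK1, had log2 fold changes of 0.27 (SE 0.18) and 0.11 (SE 0.17). CDC25B was at 164, 132 and 139.6 CPM in NC and 215, 137 and 173 CPM in the knockdown, where replicate 1 was the highest library and replicate 2 lay within NC. When that library was left out the group had 6 positive values and 1 negative, CDK1, and the log2 fold changes were 0.093 for CCNB1, 0.037 for CCNB2, 0.075 for CCNA2, 0.12 for CKS2, 0.084 for CDC25B and 0.16 for CDC25C.

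FOXM1, the kinases PLK1, AURKA and AURKB, and their partners TPX2 and BIRC5 had positive values, AURKA and TPX2 negative ones by library size alone, and none was called. The kinases NEK2, CDK1, BUB1 and TTK had negative values, as did BUB1B. FOXM1 (ENSG00000111206, chromosome 12, 2857681 to 2877155), the transcription factor of G2/M genes, was at 139, 114 and 107 CPM in NC and 172, 133 and 141 CPM in the knockdown. NC replicate 1 lay above knockdown replicate 2, so the groups overlapped (log2 fold change 0.31, SE 0.16, edgeR adjusted p = 0.35). PLK1 (ENSG00000166851, chromosome 16 at 23677656 to 23690367 on the plus strand), the Polo-like kinase of mitotic entry, had 141, 134 and 128 CPM in NC and 182, 162 and 159 CPM in the knockdown. All 3 knockdown libraries lay above all 3 NC libraries. Its log2 fold change was 0.31 (SE 0.13, 95% interval 0.018 to 0.61), the unadjusted p was 0.0402 and the adjusted p 0.338 by edgeR. Permuting the 6 CPM values exactly, 2-sided, gave p = 0.1, which is as low as 3 libraries against 3 can reach. The authors' deposited table gives PLK1 0.32 on the log2 scale, at p = 0.0307 before adjustment. Without knockdown replicate 1 the value was 0.24.

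AURKA, the Aurora kinase of centrosomes and spindle poles, was at 84.4, 86.5 and 77.1 CPM in NC and 84.9, 85.2 and 84.6 CPM in the knockdown, with a log2 fold change of 0.038 (SE 0.13) and an interval of -0.26 to 0.34. TPX2, which activates AURKA on the spindle, had 0.010 (SE 0.16). AURKB, the Aurora kinase of the chromosomal passenger complex, was at 41.6, 34.9 and 40.6 CPM in NC and 61.2, 37.2 and 56.4 CPM in the knockdown. Replicates 1 and 3 of the knockdown were above every NC library and replicate 2 was within them, and the log2 fold change, the most positive of the 37, was 0.40 (SE 0.21, edgeR adjusted p = 0.347). BIRC5 (survivin), a subunit of the same complex, was at 77.1, 63 and 67.1 CPM and 86.6, 64.7 and 90.9 CPM and its knockdown replicates 1 and 3 were likewise above and replicate 2 within the NC range (log2 fold change 0.23, SE 0.17). NEK2, a kinase that parts the centrosomes, had a negative value. It was at 40.2, 47.9 and 43 CPM in NC and 15, 41.9 and 39.4 CPM in the knockdown, with replicate 1 far below and replicate 2 inside the NC range, so that its log2 fold change of -0.44 (SE 0.34) was -0.12 without knockdown replicate 1. The other values without that replicate were 0.18 for FOXM1, 0.029 for AURKA, 0.11 for TPX2, 0.25 for AURKB and 0.16 for BIRC5.

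All 5 spindle checkpoint genes were below 0 in log2 fold change, their median being -0.36, and none was called. The median was -0.14 without knockdown replicate 1 and, under offsets for GC and length, -0.090, and BUB3 changed sign in both (to 0.26 with the offsets). The checkpoint holds the anaphase-promoting complex in check until every kinetochore is attached. BUB1, its kinetochore kinase, was at 102, 111 and 98.8 CPM in NC and 53.6, 98.4 and 91.8 CPM in the knockdown, where all 3 libraries lay below NC (log2 fold change -0.36, SE 0.22, edgeR adjusted p = 0.391). BUB1B (BUBR1), part of the inhibitor of CDC20, was at 68.2, 81 and 65.1 CPM and 43.6, 66.6 and 60.3 CPM, with replicate 2 of the knockdown inside the NC range (log2 fold change -0.33, SE 0.19, edgeR adjusted p = 0.369). TTK (MPS1), the kinase at the head of the checkpoint, was at 25.1, 32.4 and 27.7 CPM in NC and 9.99, 25.5 and 21.4 CPM in the knockdown. Replicate 1 was 2.84-fold under the NC mean and replicate 2 overlapped NC, and the fit gave -0.58 (SE 0.31, edgeR adjusted p = 0.351). MAD2L1, the partner of BUBR1 in that inhibitor, had 42.3 ± 2.92 CPM in NC and 31.9 ± 12.7 CPM in the knockdown (SD, n = 3 each; log2 fold change -0.41, SE 0.29). BUB3, which brings BUB1 and BUBR1 to kinetochores, had the smallest value of the 5 (log2 fold change -0.14, SE 0.18). The median of these 5 genes against the NC mean was -0.95, -0.078 and -0.18 in knockdown replicates 1 to 3. Without replicate 1 the log2 fold changes were -0.14 for BUB1, -0.18 for BUB1B, -0.29 for TTK, -0.12 for MAD2L1 and 0.012 for BUB3.

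The 3 genes of mitotic exit had positive values, none of them called, and negative ones with offsets for GC content and length (-0.20 for CDC20, -0.039 for UBE2C and -0.056 for PTTG1). CDC20, the activator of the anaphase-promoting complex, was at 122, 125 and 125 CPM in NC and 146, 116 and 156 CPM in the knockdown. NC varied little, while knockdown replicates 1 and 3 were above and replicate 2 below all NC libraries (log2 fold change 0.17, SE 0.15, edgeR adjusted p = 0.523). UBE2C, the ubiquitin-conjugating enzyme of that complex, had 63.6, 54.6 and 60.5 CPM and 67.9, 70.1 and 69.4 CPM, without overlap (log2 fold change 0.21, SE 0.14, edgeR adjusted p = 0.402). The 3 knockdown libraries differed from each other by less than the NC libraries did. PTTG1, securin, had 89.1 ± 8.07 CPM in NC and 101 ± 13 CPM in the knockdown (SD, n = 3 each; log2 fold change 0.17, SE 0.15). Reads of PTTG1 could be shared with its near-identical retrocopies, so its level is uncertain. When knockdown replicate 1 was left out the log2 fold changes were 0.12 for CDC20, 0.22 for UBE2C and 0.11 for PTTG1.

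**Figure D2:**
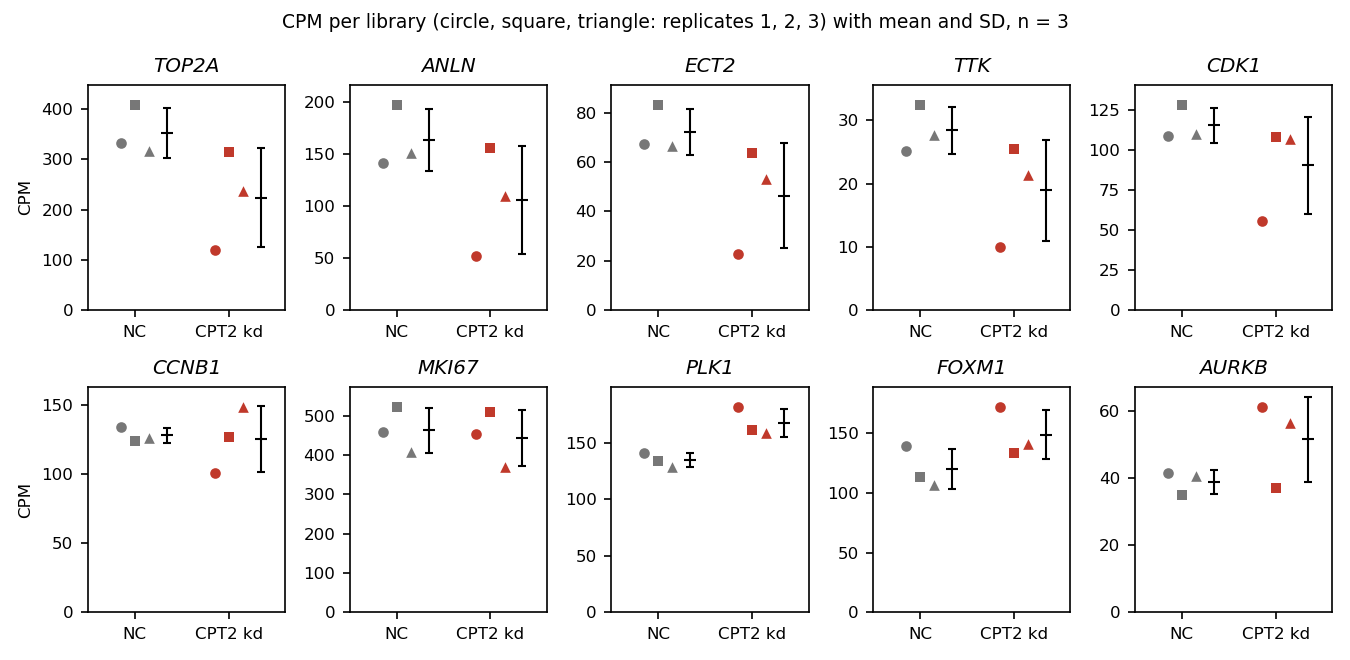
CPM of 10 members in every library (y axis, from 0; circle, square and triangle for replicates 1, 2 and 3; the bar beside each group gives mean and SD, n = 3). TOP2A, ANLN, ECT2, TTK and CDK1 have a low knockdown replicate 1, CCNB1 and MKI67 overlap between the groups, and PLK1 is higher in all 3 knockdown libraries than in NC.

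Of the 8 centromere and spindle genes 6 were negative and 2 positive, and none was called. Offsets for GC and length reversed these counts, to 2 negative and 6 positive. CENPF, a large kinetochore protein, was at 344, 415 and 328 CPM in NC and 188, 380.4 and 279 CPM in the knockdown. Its knockdown replicate 2 lay among the NC libraries and replicates 1 and 3 below them (log2 fold change -0.36, SE 0.24, edgeR adjusted p = 0.407). CENPE, a kinetochore motor, had 34 ± 7.08 CPM in NC and 24.2 ± 10.2 CPM in the knockdown (log2 fold change -0.49, SE 0.31), and CENPA, the histone H3 variant of centromeres, had 13.9 ± 0.41 CPM in NC and 15.4 ± 2.21 CPM in the knockdown (log2 fold change 0.14, SE 0.18; SD, n = 3 each). KIF11, the motor that separates the spindle poles, was at 78.7, 88.2 and 78.8 CPM in NC and 47.4, 83.8 and 66.4 CPM in the knockdown, again with replicate 2 inside the NC range (log2 fold change -0.31, SE 0.21, edgeR adjusted p = 0.407). HMMR, a spindle assembly protein, had 40.3, 50.2 and 44.4 CPM in NC and 17.5, 44.9 and 33.2 CPM in the knockdown, and replicate 1 was 2.57-fold under the NC mean (log2 fold change -0.50, SE 0.30, edgeR adjusted p = 0.384). KIF2C, a motor that takes microtubules apart at kinetochores, went the other way: 135, 130.3 and 131 CPM and 169, 133 and 149.9 CPM, with replicate 1 the highest library (log2 fold change 0.19, SE 0.14, edgeR adjusted p = 0.451). NUSAP1 shares 1787 exonic bases with the gene AC087721.2 on its strand, and its value is uncertain. The microtubule proteins NUSAP1 and DLGAP5 had log2 fold changes of -0.0065 (SE 0.18) and -0.23 (SE 0.21). The values without knockdown replicate 1 were -0.15 for CENPF, -0.22 for CENPE, 0.20 for CENPA and -0.13 for KIF11, and -0.21 for HMMR, 0.086 for KIF2C, 0.086 for NUSAP1 and -0.055 for DLGAP5.

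TOP2A and the cytokinesis genes ECT2 and ANLN had the 3 most negative values of the list, and knockdown replicate 1 was the lowest library for each. Of the other cytokinesis genes KIF23 and KIF20A were negative and PRC1 positive. ECT2 (ENSG00000114346, chromosome 3 at 172750682 to 172821474 on the plus strand), the exchange factor that sets up the cleavage furrow, was at 67.1, 83.1 and 66.6 CPM in NC and 22.8, 63.5 and 52.9 CPM in the knockdown. The groups did not overlap, yet replicate 2 was close to the lowest NC library and replicate 1 was 3.17-fold under the NC mean. Its log2 fold change came to -0.64 (SE 0.33, edgeR adjusted p = 0.343), and -0.32 without knockdown replicate 1. ANLN (anillin, ENSG00000011426, chromosome 7, 36389806 to 36453791), a scaffold of the contractile ring, was at 142, 197 and 151 CPM and 52.3, 156 and 109.6 CPM. Knockdown replicate 2 exceeded 2 of the 3 NC libraries (log2 fold change -0.62, SE 0.34, edgeR adjusted p = 0.354; -0.31 without knockdown replicate 1). KIF23, a subunit of centralspindlin at the midzone, had 86.7 ± 12.9 CPM in NC and 66.1 ± 23.6 CPM in the knockdown (log2 fold change -0.39, SE 0.26), and KIF20A, a midzone motor, had 120.0 ± 14.7 CPM in NC and 108 ± 27.6 CPM in the knockdown (log2 fold change -0.15, SE 0.20; SD, n = 3 each). PRC1, which bundles midzone microtubules, had a log2 fold change of 0.037 (SE 0.14), but it shares 3181 exonic bases on the same strand with the gene AC068831.7, which had 125 ± 16.6 CPM in NC and 88.2 ± 14.9 CPM in the knockdown. Summed over both, the log2 fold change turned to -0.15 (SE 0.14). When that library was left out the log2 fold changes as counted were -0.14 for KIF23, 0.00056 for KIF20A and 0.082 for PRC1.

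TOP2A (topoisomerase II alpha, ENSG00000131747, chromosome 17 at 40388516 to 40417950 on the minus strand) untangles sister chromatids and had the largest difference of the 37. It was at 332, 408 and 316 CPM in NC and 119, 314 and 237 CPM in the knockdown. Knockdown replicate 2 lay just under the lowest NC library, replicate 3 lower and replicate 1 lowest, so the groups did not overlap. Its log2 fold change came to -0.66 (SE 0.30, 95% interval -1.34 to 0.031, edgeR unadjusted p = 0.0589, adjusted p = 0.338). In the authors' deposited table TOP2A has -0.66 with an unadjusted p of 0.0351 and is called normal. Without knockdown replicate 1 the value was -0.36. MKI67 (Ki-67), the coat protein of mitotic chromosomes and the usual marker of proliferating cells, was at 459, 522 and 408 CPM in NC and 453, 510.4 and 369 CPM in the knockdown. The ranges of the groups overlapped almost fully (log2 fold change -0.059, SE 0.16, edgeR adjusted p = 0.845, 95% interval -0.43 to 0.31).

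**Figure D3:**
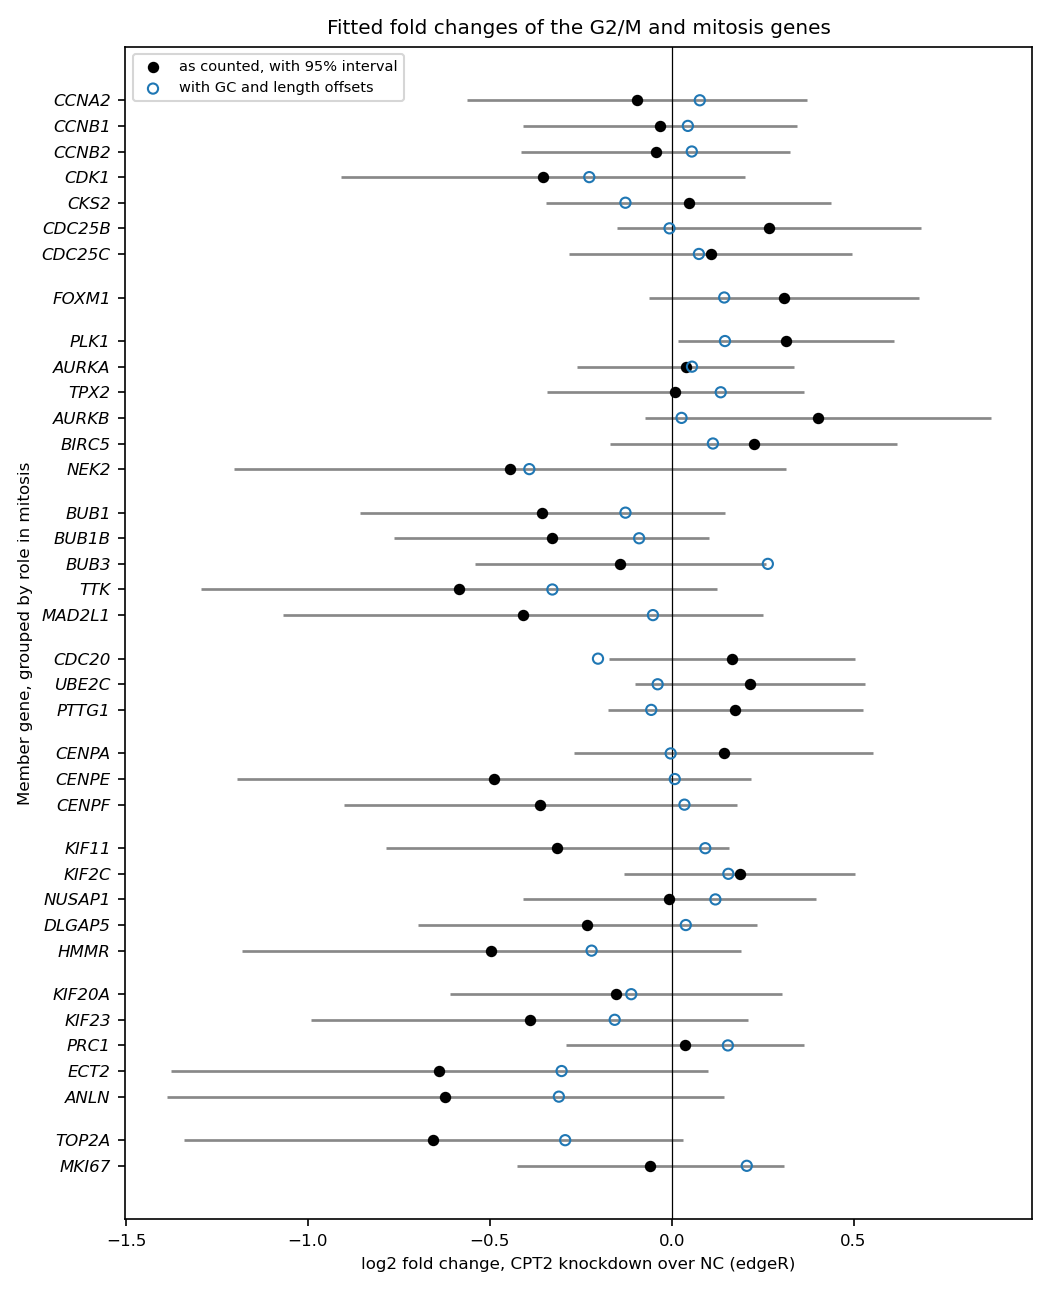
Log2 fold change of each member, knockdown over NC (x axis), as counted (black points, 95% interval in grey) and with offsets for transcript GC content and length (blue circles). The interval of PLK1 alone leaves out 0 before adjustment, and with the offsets 27 of the 37 values lie nearer to 0.

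The intervals bound what these libraries could show. For all 37 members the 95% interval left out a rise by 1 on the log2 scale, and for 29 it left out a fall by 1. The standard error ranged from 0.13 for PLK1 to 0.34 for ANLN. The members had 253 to 16102 counts in a library, so their counting error was small. In the authors' FPKM, which divide by gene length, the mean NC level of the members ran from 4.07 for CENPE to 111 for PTTG1. CKS2, CDC20, NUSAP1 and UBE2C followed PTTG1, at 88.1 ± 7.11, 72.7 ± 2.96, 71.3 ± 5.6 and 69.4 ± 4.19 FPKM (SD, n = 3), and the last 3 of these did not differ beyond their SD.

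Which mitosis genes were low in knockdown replicate 1 went with the GC content of their transcripts. The 37 genes are no replicates of each other, and as a description over them Spearman's rank correlation of GC content with the difference from the NC mean was 0.882 in knockdown replicate 1, 0.26 in replicate 2 and 0.742 in replicate 3. Over the 13207 tested genes with an annotated transcript it was 0.747, 0.145 and 0.575. The NC libraries differed from their own mean along GC content as well, with member correlations of 0.633, -0.627 and 0.167 in NC replicates 1 to 3. With transcript length the member correlations were -0.442, 0.0267 and -0.675 in the knockdown and -0.386, 0.658 and -0.623 in NC. All differences of a library share its depth and the same NC mean. The members' transcripts are AT-rich, with a median GC content of 43.2% against 48.9% for all tested genes, and run from 35.3% in CENPE to 59.3% in CDC25B. Of the 18 members of lowest GC content (35.3% to 42.6%), 17 were below 0 in log2 fold change, the median being -0.38. The 3289 tested genes in the same GC range had a median of -0.35. Of the 18 members of highest GC content, 14 had a positive value, with a median of 0.15 beside 0.032 for 6921 genes of that range. In knockdown replicate 1 alone, the AT-rich members were at a median of -1.07 and all genes of that range at -0.84.

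**Figure D4:**
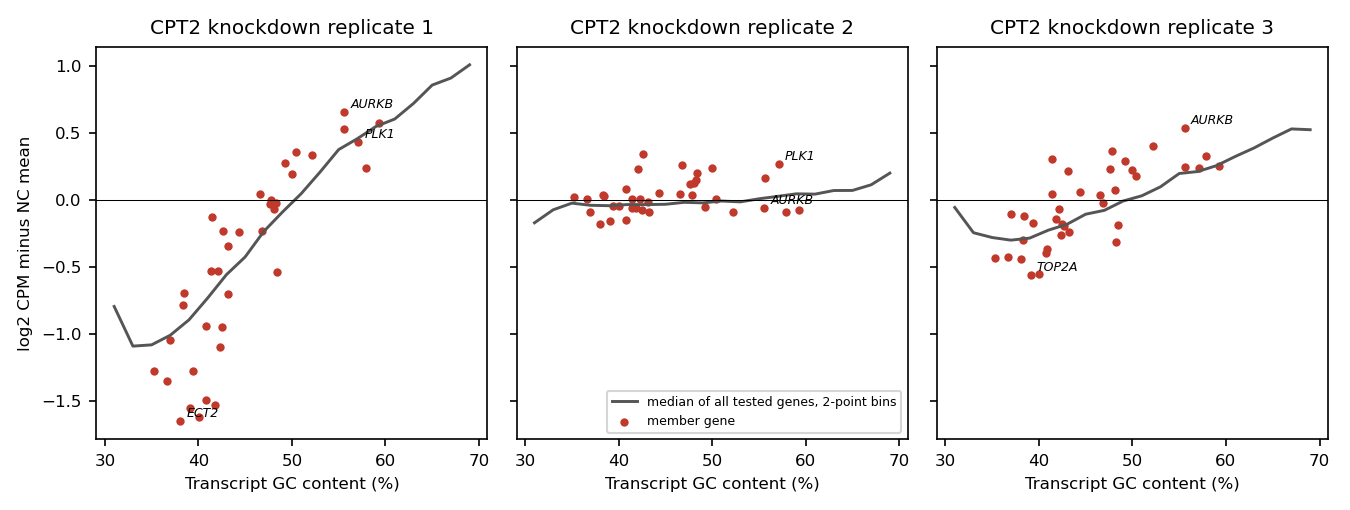
Difference of each member from the NC mean (y axis, log2 CPM) against the GC content of its longest transcript (x axis, %), for the 3 knockdown libraries, with the median of all tested genes in 2-point GC bins as a line. In replicate 1 the members follow the line from AT-rich genes below 0 to AURKB and PLK1 above 0, with several AT-rich members below the line, and in replicate 2 both stay near 0.

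With offsets for GC content and length in the fit, the members' median was 0.0084, with 18 lower and 19 higher. By edgeR 0 of 37 were called, as against 0.0227% of all genes. An unadjusted p under 0.05 was found for 1 of 37, as against 13% of all genes. It was BUB3, with a log2 fold change of 0.26 (edgeR unadjusted p = 0.0269). Most members came nearer to 0, some with a change of sign: TOP2A had -0.29 (SE 0.13), ANLN -0.31 (SE 0.17), ECT2 -0.30 (SE 0.14), PLK1 0.15 (SE 0.10) and AURKB 0.027 (SE 0.11). CENPF turned to 0.035, KIF11 to 0.092 and CENPE to 0.0084. BUB3, MKI67 (0.21), PRC1 (0.15) and TPX2 (0.13) were among those farther from 0 than as counted. Over the members, Spearman's rank correlation with GC content was 0.867 for the log2 fold changes as counted and 0.41 with the offsets. With the trend on GC content and length removed from each library, it was 0.445, 0.0688 and 0.359 in knockdown replicates 1 to 3. Some members were then low and others high in knockdown replicate 1. The median member then differed from the NC mean by -0.020 in that library, with 21 of 37 below it. Farthest above it were MKI67 at 0.42, KIF2C at 0.34 and BUB3 at 0.30. In the 5 members below -0.5 there, the differences in knockdown replicates 1, 2 and 3 were -1.14, -0.11 and -0.14 for NEK2 and -0.75, 0.0017 and -0.27 for ANLN. They were -0.74, -0.13 and -0.19 for TTK, -0.69, -0.14 and -0.15 for ECT2 and -0.60, -0.089 and -0.24 for TOP2A. In replicates 2 and 3 of the knockdown these 5 genes lay between -0.27 and 0.0017. Transcripts of mitochondrial DNA, which made up 10.0% to 10.8% of counts in NC, made up 17%, 15.6% and 8.99% in knockdown replicates 1, 2 and 3, and their part in these values was not tested.

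Of 101 listed genes that are no members, all were tested, 35 lay above and 66 below 0 in log2 fold change, at a median of -0.15 (24 and 77 by library size alone). Without knockdown replicate 1 the counts were 46 and 55 with a median of -0.031, and with GC and length offsets 40 and 61 with a median of -0.061. By edgeR 0 passed, with 13 at an unadjusted p under 0.05 (5 lower, 8 higher), beside 14.5% of all genes. DESeq2 and limma-voom also called none of them, with 16 and 14 at an unadjusted p under 0.05, beside 13.8% and 15.2% of all genes. By function, the condensin subunits, which compact mitotic chromosomes, were negative in 7 of 8 genes (median -0.29), and the 18 genes of the anaphase-promoting complex and separase were positive in 10, and in 6 by library size alone (median 0.0069). Kinetochore and checkpoint genes were negative in 17 of 26 (median -0.086), but in 10 of 26 without knockdown replicate 1 (median 0.036). The condensin median was then -0.15, and it was -0.10 with GC and length offsets. Of the other groups, all 5 cytokinesis genes were negative (median -0.36), as were all 4 of the chromosomal passenger complex and shugoshin (-0.29). Negative too were 8 of 13 mitotic entry genes (-0.20), 5 of 8 DREAM, MuvB and B-MYB genes (-0.27) and 12 of 19 spindle genes (-0.15). With GC and length offsets these medians were -0.13, -0.22, -0.096, -0.053 and -0.079 in turn. UBE2S, the chain-elongating enzyme of the anaphase-promoting complex, had 85.6, 72.3 and 93.3 CPM in NC and 160.2, 101 and 129.6 CPM in the knockdown, all above NC (log2 fold change 0.64, SE 0.19, edgeR adjusted p = 0.338). MYBL2 (B-MYB), the activator that joins MuvB, had 242, 203 and 225 CPM and 380.4, 278 and 281 CPM, also all above NC (log2 fold change 0.49, SE 0.16, edgeR adjusted p = 0.338), and LIN37, a MuvB subunit, had 10.5 ± 1.89 CPM in NC and 18.1 ± 5.69 CPM in the knockdown (log2 fold change 0.78, SE 0.26; SD, n = 3 each). Knockdown replicate 1 was the highest library for all 3 of these genes. ARHGAP11A, listed with the cytokinesis genes, had 50.6, 63.8 and 50.7 CPM in NC and 20.1, 43.9 and 37.7 CPM in the knockdown, all below NC (log2 fold change -0.70, SE 0.27, edgeR adjusted p = 0.338). MIS12, a kinetochore subunit, had 28.8 ± 0.638 CPM in NC and 18.9 ± 5.98 CPM in the knockdown (log2 fold change -0.61, SE 0.24), and KIF2A, a microtubule-depolymerizing motor, had 48.3 ± 6.08 CPM in NC and 31.1 ± 10.2 CPM in the knockdown (log2 fold change -0.63, SE 0.25; SD, n = 3 each). The transcripts of UBE2S, MYBL2 and LIN37 have GC contents of 55.7% to 60.5%, and those of ARHGAP11A, MIS12 and KIF2A of 39.8% to 41.6%. With offsets for GC content and length, the values were 0.40, 0.13 and 0.35 for the former and -0.32, -0.45 and -0.40 for the latter, in the order named. Leaving out knockdown replicate 1 gave 0.45 for UBE2S, 0.31 for MYBL2 and 0.50 for LIN37 and -0.44 for ARHGAP11A, -0.39 for MIS12 and -0.40 for KIF2A.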

How the data were processed

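Poly(A) RNA of 6 libraries was measured. The authors' table holds raw counts for each gene, deposited as whole numbers without normalization, beside FPKM named so in the file headers and the p-value, log2 fold change and call of the authors' DESeq2 comparison, whose p-values are unadjusted, per the file headers. Per the labels' protocols, mRNA was taken on oligo(dT) beads, fragmented and primed with random hexamers, with no strand marking named. The submitters' processing notes name the build GRCh38 and, with no role or order, edgeR, DESeq2, StringTie, HISAT2, Bowtie2 and TopHat2. The handling of strand and of reads mapping to several places was not given in the sources used here. Of the members, 4 share exons with another gene of the table on the same strand and 6 on the opposite strand, where reads are uncertain.

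Of the table, 17 stray lines without values were left out. The whole table held 4180 new loci, which were kept where they passed the filter. In R 4.3.3 with edgeR 4.0.16, filterByExpr kept 15302 genes, 13207 of them with an annotated transcript. TMM factors scaled the libraries. The functions glmQLFit (robust) and glmQLFTest were fitted on all genes kept without covariates, adjusted by Benjamini-Hochberg at 0.05. Chromosome positions, transcript GC content and length (longest transcript) came from GENCODE 29 on GRCh38. Differences by library used log2 CPM with a prior count of 2. The GC and length trend is a loess (span 0.3) of each library on both. Alternatives were DESeq2 1.42.0, limma-voom and limma-trend (limma 3.58.1) on log2(FPKM + 1) and log2(FPKM + 0.1), other scalings, filters (none, or at least 1 CPM in 3 libraries and a mean of 5 CPM), Ensembl genes alone, a replicate block, GC and length offsets, and each library left out. Summing members with genes of shared exons was chosen after seeing the data. The tests were checked on simulated counts.

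The 37 members, the 101 other mitosis genes and the other lists were chosen with earlier results of these data known, so no list test is given. Every member is reported. Values in every library are given for 13 regulators (CCNB1, CDK1, CCNA2, FOXM1, PLK1, AURKA, AURKB, BIRC5, CDC20, TOP2A, MKI67, CENPF and KIF11) and for the 6 members of smallest p in each direction. Of the 101 other genes, the 3 of smallest p in each direction are named. Per-library values of CCNB2, BUB1 and NEK2 and the 6 printed promoters were chosen after seeing the values.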

Additional observations from a re-analysis of the deposited data

How the results depend on the processing

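Over 21 alternatives, no member was called, the 777 alternative values of the members having adjusted p-values of 0.0526 to 1.00, and 91 of them, in 23 members, changed sign. The number of libraries, 3 a group, limits the precision. The number of genes called, 2 in all, was 20 with DESeq2, 1 with limma-voom, 0 with limma-trend on log2(FPKM + 1) or log2(FPKM + 0.1), 1 with the stricter filter and 4 with GC and length offsets and without CPT2 knockdown replicate 1, and 1 to 5 when each library was left out in turn. Members at an unadjusted p under 0.05 numbered 1 as reported (14.5% of all genes), 3 with DESeq2 (13.8%) and 2 with limma-voom (15.2%). Without CPT2 knockdown replicate 2 they numbered 16 (35.9% of all genes). They numbered 0 by library size alone, 2 with no filter and 0 to 2 with any other library left out. For those settings the share of all genes was not computed. The members' median log2 fold change was -0.20 by library size alone and 0.029 without CPT2 knockdown replicate 1. Over the 21 alternatives it ran from -0.22 (without CPT2 knockdown replicate 2) to 0.031 (GC and length offsets without CPT2 knockdown replicate 1). The cause of these shifts was not tested.

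Same-numbered libraries correlated at 0.25, 0.363 and 0.0065 in their deviations from the group means, and differently numbered ones at -0.32 to 0.091. The values of replicates 1 and 2 lay above that range and the value of replicate 3 within it. The numbers were not taken to pair the samples, and a block on them is given as an alternative. With the replicate block 633 genes were called (4.14% of those tested), among them 0 members and 6 other mitosis genes, and 17 members had an unadjusted p under 0.05, where 30.6% of genes did. With the replicate block and GC and length offsets 652 genes were called (4.94% of those tested), among them 0 members and 8 other mitosis genes, and 10 members had an unadjusted p under 0.05, where 23.1% of genes did.

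The log2 fold changes that changed sign are given by setting. With offsets for GC and length the values were CDKN1A -0.30, CDC20 -0.20, CKS2 -0.13, PTTG1 -0.056, UBE2C -0.039, CDC25B -0.0061, CENPA -0.0029, CENPE 0.0084, CPT2 0.017, MDM2 0.021, CENPF 0.035, DLGAP5 0.039, CCNB1 0.044, CCNB2 0.055, CCNA2 0.077, KIF11 0.092, NUSAP1 0.12, MKI67 0.21 and BUB3 0.26. With those offsets and without CPT2 knockdown replicate 1 the values were CDKN1A -0.31, CDC20 -0.13, PTTG1 -0.071, CDC25B -0.042, CKS2 -0.033, AURKA -0.011, AURKB -0.0057, KIF20A 0.013, DLGAP5 0.026, CCNB2 0.041, CENPE 0.046, KIF11 0.046, MDM2 0.052, CCNB1 0.076, MAD2L1 0.076, CENPF 0.082, NUSAP1 0.089, MKI67 0.092, CCNA2 0.12 and BUB3 0.25. With the replicate block and those offsets the values were CDKN1A -0.31, CDC20 -0.20, CKS2 -0.13, PTTG1 -0.056, UBE2C -0.045, CENPA -0.0073, CDC25B -0.0051, CENPE 0.011, MDM2 0.022, CENPF 0.032, CCNB1 0.041, DLGAP5 0.047, CCNB2 0.060, CCNA2 0.075, KIF11 0.092, NUSAP1 0.11, MKI67 0.20 and BUB3 0.26. By library size alone the values were CDKN1A -0.13, TPX2 -0.12, AURKA -0.10, PRC1 -0.10, CKS2 -0.084 and CDC25C -0.026. With limma-trend on log2(FPKM + 1) the values were TPX2 -0.13, CDKN1A -0.11, CKS2 -0.089, PRC1 -0.061, AURKA -0.060 and PTTG1 -0.0022. With limma-trend on log2(FPKM + 0.1) the values were TPX2 -0.13, CDKN1A -0.12, CKS2 -0.090, PRC1 -0.062, AURKA -0.061 and PTTG1 -0.0022. Single values were NUSAP1 0.0029 with upper-quartile factors, TPX2 -0.00018 with DESeq2, TPX2 -0.0028 with no filter, NUSAP1 0.0016 with the stricter filter, TPX2 -0.0018 with the replicate block alone, TPX2 -0.00069 with limma-voom and PRC1 -0.15 summed with genes that share exons. When each library was left out in turn, the lowest and highest values were -0.011 to 0.071 for AURKA, -0.24 to 0.012 for BUB3, -0.29 to 0.075 for CCNA2, -0.17 to 0.093 for CCNB1, -0.10 to 0.037 for CCNB2, -0.13 to 0.10 for CDKN1A, -0.10 to 0.12 for CKS2, -0.37 to 0.00056 for KIF20A, -0.17 to 0.059 for MKI67, -0.22 to 0.086 for NUSAP1, -0.25 to 0.10 for PCNA, -0.056 to 0.13 for PRC1 and -0.13 to 0.11 for TPX2.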

Other observations

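Genes of G1/S and DNA replication and targets of p53 bear on the same cycle. Of 36 G1/S genes, 14 lay above and 22 below 0 in log2 fold change, at a median of -0.11, and 0 passed by edgeR, with 3 at an unadjusted p under 0.05, beside 14.5% of all genes. The median was -0.018 without knockdown replicate 1 and, under offsets for GC and length, -0.032. PCNA, the sliding clamp of DNA replication, was at 175, 175 and 168 CPM in NC and 105, 185 and 188 CPM in the knockdown, where replicate 1 was the lowest and replicates 2 and 3 the highest of the 6 libraries (log2 fold change -0.12, SE 0.22; 0.10 without replicate 1). Of 16 p53 targets, 8 were positive and 8 negative, with a median of -0.14, and 0 passed by edgeR. At an unadjusted p under 0.05 were 5 of them (3 lower, 2 higher), beside 14.5% of all genes. Offsets for GC and length left 4 positive and 12 negative (median -0.21). Limma-voom called 0 genes of either list and DESeq2 called 1, the p53 target SFN, beside 0.00654% and 0.122% of all genes. By DESeq2, 3 G1/S genes and 6 p53 targets had an unadjusted p under 0.05, beside 13.8% of all genes. By limma-voom the numbers were 2 and 5, beside 15.2% of all genes. CDKN1A (p21), the CDK inhibitor through which p53 acts on cell-cycle genes, had 29.2, 27.2 and 31.6 CPM in NC and 35, 28.1 and 26.1 CPM in the knockdown (log2 fold change 0.018, SE 0.18; -0.30 with GC and length offsets). MDM2, the ubiquitin ligase of p53, had 68.9, 78.3 and 73.3 CPM in NC and 40.2, 70.2 and 59.8 CPM in the knockdown (log2 fold change -0.37, SE 0.21; 0.021 with GC and length offsets). SFN (14-3-3 sigma), singled out after its values were seen, had 121 ± 16.1 CPM in NC and 223 ± 43.2 CPM in the knockdown (SD, n = 3 each), a log2 fold change of 0.88 with an adjusted p of 0.338 by edgeR and of 0.0235 by DESeq2.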
